A study of Bos taurus with 12 samples.

Results

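Methylation at 8 genes of neutrophils and monocytes was examined in the blood DNA of 12 cows. The genes were LTF, MPO, PADI4 and CXCR2, known from neutrophils, and MSR1, CCR2, CD86 and CLEC4E, known from monocytes and macrophages. A cytosine was taken when the deposited annotation did not call it distal intergenic and placed it in 1 of these genes, by the gene identifier in the annotation text or, where the text has none, by the gene symbol. This gave 70 cytosines out of 216,990 in the deposited table, of which 92,535 are not distal intergenic. LTF held 46 of the 70, MSR1 12, PADI4 4, CD86 3, CLEC4E 2, and MPO, CXCR2 and CCR2 1 each.

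The animals were dairy cows (Bos taurus) of 1 farm, aged 3 to 8 years, kept alike. The subfertile group is 6 cows that were culled in the year after sampling for reproductive problems not known when the blood was drawn. The fertile group is 6 herd mates that remained and had no such problem. DNA from 1 mL of whole blood was treated with the enzymes TET2, T4-BGT and APOBEC3A, which turn unmodified cytosines into bases read as thymine, so that a cytosine still read as such was methylated or hydroxymethylated. Each value gives, for a cytosine and a cow, the percent read as methylated, on the build ARS-UCD1.2. Neither the breed nor kinship among the cows is stated, and the cows are numbered here within each group in the order in which they are listed.

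The table holds only cytosines that the authors picked as differing between these groups: every absolute difference in the authors' deposited table is above 25 points, and every q-value is below 0.01. The sites were thus selected on the percent values of these same 12 cows, and the genes were chosen among those with such sites. The group differences below are therefore descriptions and carry no test. The member site nearest to the threshold in the authors' deposited table, an MSR1 promoter site, differs by 25.5 points, and sites below the threshold were not analysed here. Columns of cows labelled subfertile carry the prefix F and those labelled fertile the prefix R, with no explanation of the letters. The labels were followed, and a reversed meaning would turn every direction. The depth behind a value is unknown, since the table holds no read counts, and the share of sites without a value was 0.669 to 4.88% per cow. The identity of the tissue could not be checked on sites chosen for a difference.

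Neutrophils are the fast-moving phagocytes of the blood. They carry antimicrobial proteins such as lactoferrin and myeloperoxidase in granules made during maturation in the bone marrow, and follow chemokines into tissue through receptors such as CXCR2. Monocytes leave the marrow through the chemokine receptor CCR2 and become macrophages and dendritic cells, which take up particles through scavenger and lectin receptors and stimulate T cells through CD86. DNA methylation at promoters and enhancers of such genes is known to differ between white blood cell types. In whole blood, a different share of a cell type and a different level within its cells cannot be told apart, and no cell counts were analysed here.

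Of the 70 sites, 59 had a higher mean in subfertile cows and 11 a lower one, and among all deposited sites 52.1% were higher. The higher sites lay mostly in LTF (43) and MSR1 (12), and in the other 6 genes 4 sites were higher and 8 lower. LTF, MSR1, CCR2 and CXCR2 had the higher mean in subfertile cows, MPO and PADI4 the lower one, and CD86 and CLEC4E held sites of both directions. The groups did not overlap at 3 of the 70 sites (4.29%), against 3.1% of all deposited sites. Of these, 2 in LTF were higher in subfertile cows (1.94% of all sites were so) and 1 in MPO was lower (1.16% of all sites). Averaged over sites, only MPO of the 8 genes separated the groups, against 3.52% of all genes with a symbol. At 50 sites (71.4%) the cows spanned from under 10% to over 80%, here called a wide range, against 69.9% of all sites. Values for all 12 cows were given at 58 sites (82.9%), against 81.3% of all sites.

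**Figure D1:**
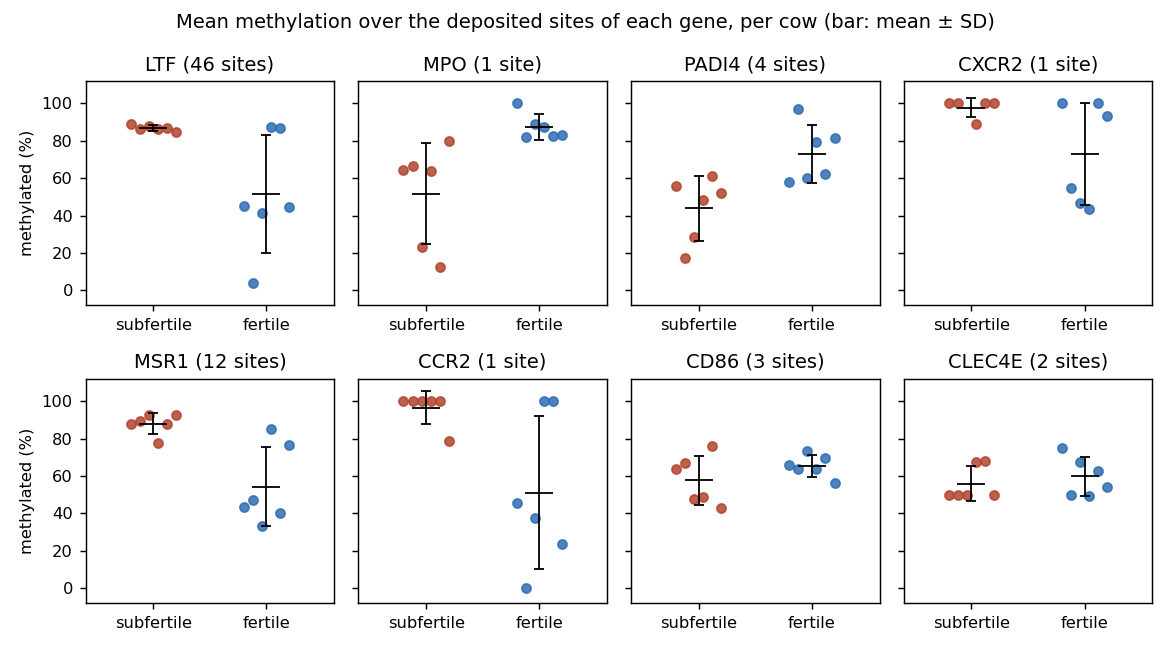
Percent methylated (vertical axis) averaged over the deposited sites of each of the 8 genes, with 1 point per cow in the subfertile and the fertile group, and a bar at the mean ± SD. LTF and CCR2 show subfertile cows close together near the top and fertile cows spread from near 0 to the subfertile level, and MPO is the gene whose groups do not overlap.

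LTF encodes lactoferrin, an iron-binding protein of neutrophil granules and of milk. It lies on the forward strand of chromosome 22 from 52,952,571 to 52,986,619, and its 46 sites span 30.6 kb from 52,954,403 to 52,985,004. There are 3 sites within 3 kb of the gene start, which the annotation calls promoter although they lie 1.83 to 2.46 kb inside the gene, 41 in introns and 2 in exon 11 of 17. The 5 sites at its far end are nearer to the start of CCRL2 but lie in LTF introns 13 to 16 of 16. Averaged over the 46 sites, the 6 subfertile cows had 88.9, 86.4, 87.9, 86.6, 86.7 and 84.8% methylation. The 6 fertile cows had 44.8, 3.70, 41.6, 87.4, 87.1 and 44.3%. The subfertile cows were thus alike, while the fertile cows fell at 3 levels: cow 2 near 0, cows 1, 3 and 6 in the middle, and cows 4 and 5 at the level of the subfertile cows. The means were 86.9 ± 1.40% and 51.5 ± 31.7% (SD, n = 6 in each group), a difference of 35.4 percentage points, and the groups overlapped. Without the 40 sites of wide range it was 7.17 points over 6 sites, 3 of them the opposite sites of intron 14.

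The 3 levels recurred along the gene. At 43 LTF sites the subfertile mean was higher, and fertile cow 2 was listed at 0 at 40 of these 43. The share of all deposited sites at which this cow is at 0 is not given here, so the count has no background beside it. The other values of fertile cow 2 at these 43 sites reached up to 41.2%. Fertile cow 1 lay between 20 and 80% at 42 of 43 sites, fertile cow 3 at 39 of 43 and fertile cow 6 at 41 of 42. Fertile cows 4 and 5 had medians of 94.1 and 100% over these sites, within the range of the subfertile medians of 92.3 to 100%. At most of these 43 sites the cows thus kept their level, in promoter, exon and intron sites alike. In the promoter sites the fertile cows had 36.9, 0, 56.0, 90.0, 79.8 and 50.3%, and in exon 11 they had 34.8, 0, 54.6, 94.1, 95.8 and 32.1%.

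**Figure D2:**
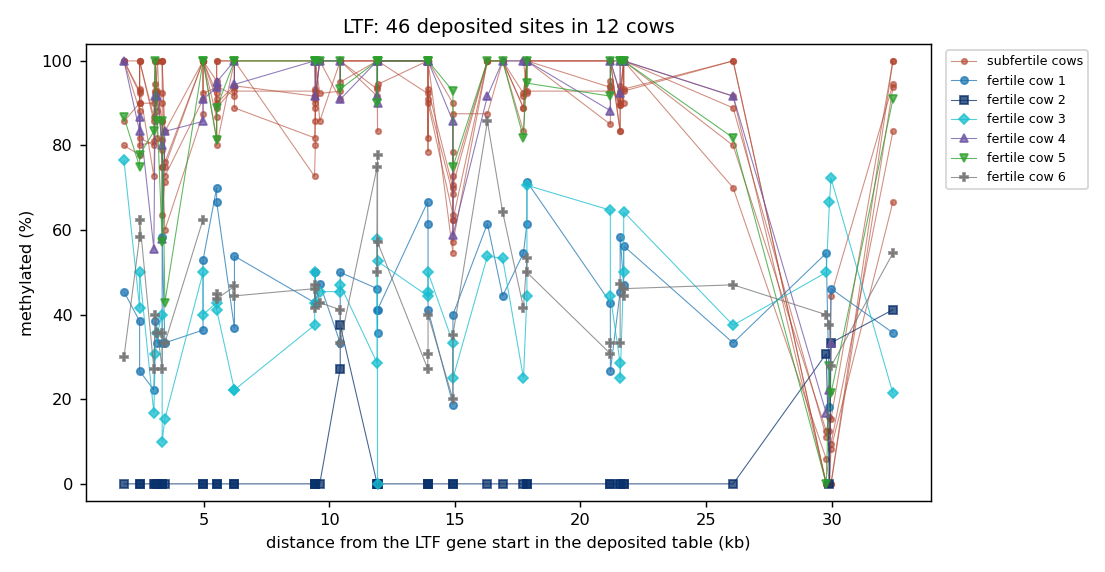
Percent methylated (vertical axis) at each of the 46 LTF sites against the distance from the gene start in kb, with a red line per subfertile cow and a line and symbol of its own per fertile cow. Fertile cow 2 runs along 0 and fertile cows 1, 3 and 6 near the middle over most of the gene, and at a group of 3 sites near 30 kb the subfertile cows are low and the order of the fertile cows is different.

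The site with the largest difference in the authors' deposited table for LTF, 54.8 points, lies in exon 11 at 52,973,760. Subfertile cows had 100, 100, 100, 95.2, 100 and 94.1% there, and fertile cows 26.7, 0, 44.4, 100, 100 and 33.3%. As over the whole gene, fertile cows 4 and 5 overlapped the subfertile group. The sites at 52,963,010 and 52,964,481, both in intron 6, were the 2 without overlap. At the former, subfertile cows ran from 95.0 to 100% and fertile cows from 33.3 to 93.3%, a gap of 1.67 points. At the latter, 5 subfertile cows with a value ran from 93.8 to 100% and fertile cows from 0 to 91.7%, a gap of 2.08 points. These gaps are small beside the strand differences given next, and the neighbouring cytosines on the opposite strand did overlap.

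Both strands of a CpG were deposited for 15 CpG sites of LTF, 4 of MSR1 and 1 of PADI4, that is 40 of the 70 cytosines (57.1%, against 44.2% of all sites). The strands of a CpG are read from separate reads, so their agreement gives a view of the error of a value. Only CpG sites of which both cytosines passed the selection are included, so the error may be larger than this agreement shows. Over the 176 LTF values with both strands, the strands differed by a median of 5.72 points, with an upper quartile of 10.1 and a largest difference of 52.6. The median was 5.88 in subfertile and 5.56 in fertile cows, and 0 in fertile cow 2. Over all 47,992 deposited pairs the median was 5.71 points. The distance between the fertile cow levels in LTF was much larger than this.

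A group of 3 sites in intron 14, at 52,982,352, 52,982,479 and 52,982,541, ran the other way. Averaged over the 3, subfertile cows had 14.8, 13.0, 2.78, 0, 12.6 and 1.96%, and fertile cows 39.6, 21.4, 63.0, 24.1, 16.4 and 35.1%. All cows were lower here than the subfertile cows were over the rest of the gene, and the order of the fertile cows was not that of the other LTF sites, with fertile cow 3 highest. The averages over these 3 sites did not overlap, at 7.53 ± 6.62% against 33.3 ± 16.9%, although each of the 3 sites overlapped. The highest subfertile cow, at 14.8%, lay closer to the lowest fertile cow, at 16.4%, than the median strand difference of 5.72 points. The 3 sites were grouped for their direction, so this separation is no result of its own. The last site, at 52,985,004 in intron 16, had 89.7 ± 12.8% (n = 6) and 48.8 ± 26.4% (n = 5), and fertile cow 2 was at 41.2% there. The first site, at 52,954,403, had 94.3 ± 9.04% and 56.4 ± 38.0%.

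MPO encodes myeloperoxidase, the enzyme of neutrophil granules that makes hypochlorous acid. Its only site lies at 9,249,306 on chromosome 19, in intron 12 of 13 of a gene on the reverse strand from 9,247,681 to 9,259,279. Subfertile cows had 64.3, 66.7, 23.1, 63.6, 12.5 and 80%, and fertile cows 100, 81.8, 88.9, 87.5, 82.4 and 83.3%. Here the fertile cows were alike and the subfertile cows spread, the reverse of LTF. The groups did not overlap, but the gap was 1.82 points, less than the median difference between strands. The means were 51.7 ± 27.1% and 87.3 ± 6.84% (n = 6 in each group).

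PADI4 encodes the peptidylarginine deiminase that citrullinates histones when neutrophils release extracellular traps. It lies on the reverse strand of chromosome 2 from 135,262,232 to 135,290,548, and all 4 of its sites were lower in subfertile cows. Averaged over them, subfertile cows had 55.7, 17.1, 28.5, 48.1, 61.1 and 52.1%, and fertile cows 57.8, 96.9, 60.3, 79.4, 62.5 and 81.4%. Subfertile cow 5 lay above fertile cows 1 and 3, so the groups overlapped, and subfertile cow 2 and fertile cow 2 stood at the ends. The means were 43.8 ± 17.2% and 73.1 ± 15.4%, 29.3 points lower in subfertile cows.

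The PADI4 sites did not share 1 pattern. The CpG at 135,292,319 and 135,292,320, 1,771 and 1,772 bp before the gene start, had 97.6, 100 and 97.5% in fertile cows 2, 4 and 6 over both strands, and 40.6, 44.4 and 50.0% in fertile cows 1, 3 and 5. Subfertile cow 1 was at 90.9% there, on the reverse strand only, and subfertile cow 2 at 0. The cytosine at 135,292,320 has the largest difference of this gene in the authors' deposited table, 34.3 points. The site in intron 2 of 15, at 135,285,589, had 21.8 ± 24.9% and 54.3 ± 22.6%, with subfertile cows 2, 3 and 4 at 0. The site in intron 9, at 135,276,696, had 66.0 ± 25.3% and 94.5 ± 6.39%, with all fertile cows at 85.7% or more. Another 10 deposited sites, distal intergenic and nearest to PADI4, were not members, and 6 of them were higher in subfertile cows (74.0 ± 23.4% against 32.8 ± 17.8%). With these 10 sites included the difference was 0.756 points.

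CXCR2 encodes the receptor by which neutrophils follow interleukin-8. Its only site, at 106,190,619 on chromosome 2 in its only intron, lies 4.57 kb after the gene start, within the gene's bounds of 106,186,049 to 106,192,525. Subfertile cows 1, 2, 5 and 6 had 100% and cow 4 had 88.9%, with no value for cow 3. Fertile cows had 100, 54.5, 46.7, 43.8, 100 and 93.3%, so 3 of them lay at the subfertile level and 3 near the middle. The difference of the means, 97.8 ± 4.97% (n = 5) against 73.0 ± 27.4% (n = 6), was 24.7 points. In the authors' deposited table it is 27.0 points.

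MSR1 encodes a scavenger receptor by which macrophages take up modified lipoproteins and bacteria. It lies on the forward strand of chromosome 27 from 20,909,874 to 20,990,586, and its 12 sites, all higher in subfertile cows, span 76.2 kb. Averaged over them, subfertile cows had 87.8, 89.4, 92.7, 77.4, 87.8 and 92.5%, and fertile cows 43.6, 47.2, 33.2, 85, 40.1 and 76.7%. Fertile cow 4 lay among the subfertile cows and fertile cow 6 just below them, and the other 4 fertile cows were well below. The means were 87.9 ± 5.60% and 54.3 ± 21.2%, a difference of 33.6 points, and the groups overlapped.

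The 8 sites from 20,908,085 to 20,917,810 gave the clearest split in MSR1. They comprise 5 promoter sites 1,290 to 1,789 bp before the gene start, a CpG in intron 1 of 8 and 1 site 878 bp before a start inside the gene. Subfertile cows had 94.1, 95.9, 98.6, 93.2, 95.1 and 95.0% over these, and fertile cows 48.0, 46.6, 40.6, 93.3, 50.8 and 95.3%. Fertile cows 4 and 6 were thus at the subfertile level, the others near the middle, and no cow near 0. The site with the largest difference in the authors' deposited table for MSR1, 40.1 points, is the forward strand of that CpG at 20,915,264. Farther in, at the 3 sites of introns 5 and 6, fertile cow 3 was at 0 at every site and subfertile cow 4 averaged 42.8%, so cows ordered differently there. At the last site, 20,984,280 in intron 8, fertile cow 3 had 73.3% and fertile cows 5 and 6 had 0. A further 8 deposited sites near 20.6 Mb, distal intergenic and nearest to MSR1, ran the other way (12.8 ± 19.2% against 49.8 ± 42.0%) and were not members. With these 8 and 1 more distal intergenic site, at which subfertile cows were higher, the difference was 7.08 points.

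**Figure D3:**
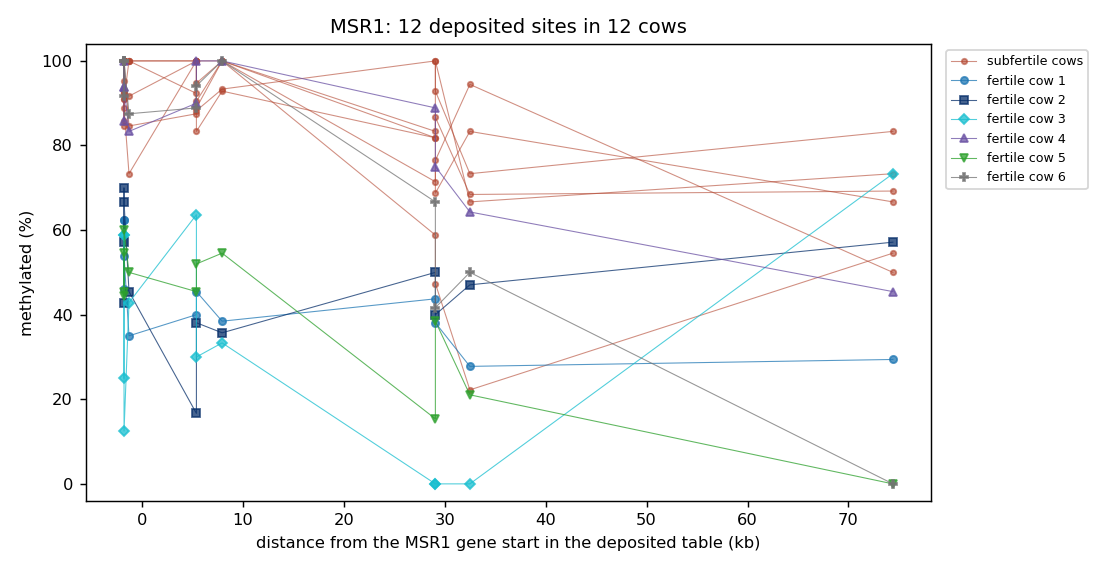
Percent methylated (vertical axis) at each of the 12 MSR1 sites against the distance from the gene start in kb, with a red line per subfertile cow and a line and symbol of its own per fertile cow. Up to 10 kb, fertile cows 4 and 6 run with the subfertile cows and the other 4 fertile cows near the middle, and at the last site the order of cows is different.

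CCR2 encodes the receptor by which monocytes follow the chemokine CCL2 out of the bone marrow. Its only site, at 53,045,906 on chromosome 22, lies 365 bp after the start of the gene, which is on the reverse strand from 53,043,751 to 53,046,271. Subfertile cows had 100% in 5 animals and 78.6% in cow 6. Fertile cows had 45.5, 0, 37.5, 100, 100 and 23.5%, so cows 4 and 5 were at the subfertile level. The means were 96.4 ± 8.75% and 51.1 ± 40.9%, a difference of 45.3 points. In the authors' deposited table it is 49.3 points.

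CD86 encodes a costimulatory ligand by which monocytes, dendritic cells and B cells activate T cells. Its 3 sites lie in intron 1 of 5 on chromosome 1, between 66,556,559 and 66,568,826, in a gene on the forward strand from 66,544,199 to 66,610,926. At the first, subfertile cows had 100, 100, 45.5, 45.5, 100 and 28.6%, and all fertile cows 100%. At 66,557,436 subfertile cows were higher, at 85.5 ± 20.6% against 58.1 ± 32.1%. At the last, 4 of the 5 subfertile cows with a value were at 0 and cow 5 at 57.1%, and fertile cows had 43.8, 0, 50.0, 0, 81.8 and 52.9%. The order of the cows differed among the sites, and their mean of 57.6 ± 13.2% against 65.4 ± 5.89% joins sites of opposite direction. The difference of these means, -7.76 points, was -1.33 over the 2 sites with a value in all 12 cows.

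CLEC4E encodes Mincle, a lectin receptor of macrophages for glycolipids of mycobacteria and fungi. It lies on the reverse strand of chromosome 5 from 101,699,354 to 101,709,804, and its 2 sites also ran in opposite directions. At 101,699,765, in intron 3 of 9, subfertile cow 4 had 46.2% and the other subfertile cows 100%. Fertile cows 2 and 5 had 100% as well, fertile cows 3, 4 and 6 had 53.3, 38.5 and 57.9%, and cow 1 had no value. At 101,703,471, in intron 2, subfertile cows had 0, 0, 0, 88.9, 35.7 and 0%, and fertile cows 75, 0, 81.8, 60, 25 and 50%. Subfertile cow 4 thus stood apart from the other subfertile cows at both sites, which lie 3.71 kb apart.

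LTF and CCR2 lie close together on chromosome 22. Whether they order the cows alike was asked of the deviations of cows from their group means. The selection for a group difference does not set which fertile cows are low. It is not independent of r, however, since low values in fertile cows also gave these sites their group difference. The genes were chosen with earlier results of these data known, which the p-values below do not cover. The CCR2 site lies 60.9 kb beyond the last and 91.5 kb beyond the first LTF site. Cow by cow, the fertile cows had 44.8, 3.70, 41.6, 87.4, 87.1 and 44.3% over LTF and 45.5, 0, 37.5, 100, 100 and 23.5% at CCR2. The lowest cow and the 3 cows in the middle were the same, as were the 2 at the top. Over the 12 cows, Pearson's r of the deviations was 0.96 (exact permutation test within groups, two-sided, p = 0.00278) and Spearman's rho 0.93 (exact permutation p = 0.00231). The tied values of CCR2 allow no p below 0.000463 for r. The SD of LTF was 1.40 points in subfertile and 31.7 in fertile cows, so r over the 12 cows rests mostly on the fertile cows.

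This was 1 of 28 pairs among the 8 genes. Adjusted over them by the Benjamini-Hochberg method, the exact permutation p was 0.0778 for r and 0.0648 for rho, so the relation did not pass at 0.05 over the family. The other 27 pairs had r between -0.62 and 0.34, with a smallest exact permutation p of 0.0543 (adjusted 0.76) for MSR1 and CLEC4E. In the 6 fertile cows alone r was 0.97 (exact permutation p = 0.00833) and rho 0.93 (exact permutation p = 0.0222). In the 6 subfertile cows r was 0.73 and rho 0.65 (exact permutation p = 0.167 and 0.333). For r, 0.167 is the smallest p that 5 equal values allow.

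Without fertile cows 2 and 4, the 2 cows farthest from the median deviation in LTF, r was 0.93 over 10 cows (exact permutation p = 0.0417). Among fertile cows alone, without cows 4 and 5, r was 0.89 over 4 cows (exact permutation p = 0.125). The fertile cows fell at separate levels of 1, 3 and 2 cows, so r mainly records that the levels hold the same cows. Whether the genes also move together within a level could not be tested with 3 cows or fewer: in the middle level, fertile cows 1, 3 and 6 had 44.8, 41.6 and 44.3% over LTF and 45.5, 37.5 and 23.5% at CCR2.

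**Figure D4:**
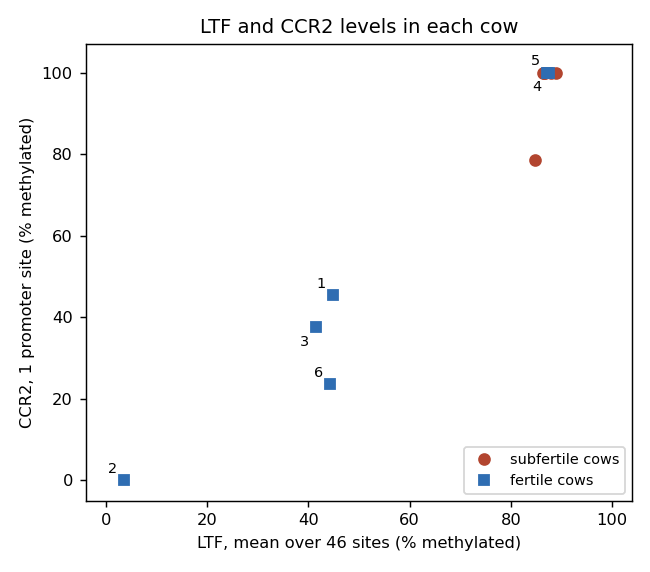
Percent methylated at the CCR2 promoter site (vertical axis) against the mean over 46 LTF sites (horizontal axis), with a red circle per subfertile cow and a numbered blue square per fertile cow. Fertile cow 2 lies at the lower left, fertile cows 1, 3 and 6 in the middle and fertile cows 4 and 5 among the subfertile cows at the upper right.

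The single LTF sites make up the LTF mean, and 30 of the 46 are the strands of 15 CpG sites. Their r with the same CCR2 site in the same cows thus breaks down the r above and adds no support to it. Of the 43 LTF sites higher in subfertile cows, 36 had an r of at least 0.8 with the CCR2 site and 28 of at least 0.9, with a median of 0.92 and a range from 0.57 to 0.98. The 3 sites of intron 14, which are lower in subfertile cows, had r from -0.63 to 0.10. As a description of the background, with sites as points and the same 12 cows behind every pair, the median absolute r of deviations over all pairs of deposited sites 50 to 100 kb apart was 0.46, and 17.5% of 1,334,538 pairs reached 0.8. For pairs 1 to 10 kb apart the median was 0.79, and for sites on different chromosomes 0.22, with 0.535% reaching 0.8. Shared cow patterns between neighbouring sites are thus common in this table, and that of LTF and CCR2 lies at the upper end for its distance. A mean over many sites is less noisy than a single site, which raises the r of gene means against that of pairs of sites.

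The pattern was not limited to these genes. Within 1 Mb of the LTF sites there were 279 deposited sites besides these and CCR2, and 48 had an absolute r of at least 0.8 with the LTF mean, 5 of them negative. Before LTF, from 50 to 250 kb, 26 of 42 sites did so, and fertile cow 2 was listed at 0 at 33 of the 42. From 250 to 500 kb before LTF the count was 6 of 38, and from 500 to 1000 kb it was 7 of 78, with fertile cow 2 at 0 at 12 and 38 of these sites. The share of all deposited sites with this cow at 0 is not given here, so its counts have no background. A value of 0 in this cow does not by itself mark the LTF pattern, as the 38 against 7 of 78 sites show. Between LTF and CCR2, 3 of 5 sites reached 0.8, and r ran from 0.54, at a CCRL2 promoter site, to 0.97. Past CCR2, 1 of 5 sites up to 53,067,080 did so, the next site used here lay 194 kb farther, and from 250 to 500 kb after LTF the count was 0 of 45. From 500 to 1000 kb after LTF it was 5 of 65 (7.69%), which are the 5 negative ones. Over all pairs of deposited sites, 17.5% reached 0.8 in absolute r at 50 to 100 kb and 10.6% at 100 to 250 kb. The share was 7.46% at 250 to 500 kb and 5.62% at 500 to 1000 kb. Before LTF, the shares in these bands were 53.8, 65.5, 15.8 and 8.97%. Of these, only the stretch from 50 to 250 kb lay far above the background. The counts from 500 to 1000 kb on both sides were near it. The comparison is rough, since a mean over many sites raises r.

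**Figure D5:**
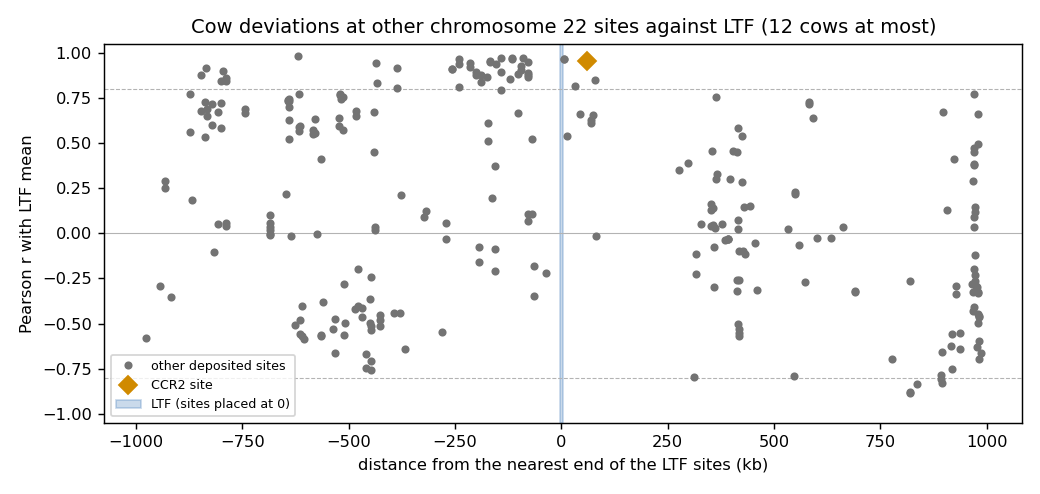
Pearson's r of cow deviations with the LTF mean (vertical axis) for each deposited chromosome 22 site within 1 Mb, against its distance from the nearest end of the LTF sites in kb (horizontal axis). Dashed lines mark 0.8 and -0.8. Sites with r above 0.8 are most frequent from 250 kb before LTF to the CCR2 site, mixed with sites of other patterns, and none lies from 250 to 500 kb after LTF.

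Among 295 other genes of chromosome 22 with a named site, the 5 with gene means most like LTF were taken by r over 12 cows. These were LOC112443487 (r = 0.97, 2 sites, 258 kb away), CCR2, TMIE (r = 0.94, 4 sites, 167 kb), LRRC2 (r = 0.89, 12 sites, 36.9 kb) and SLC6A6 (r = 0.85, 3 sites, 4801 kb). In LOC112443487 the fertile cows had 52.6, 0, 33.9, 85, 83.3 and 39.2%, the 3 levels seen in LTF. TMIE, a gene of inner ear hair cells, had 50.4, 0, 44.8, 73.0, 69.4 and 54.1%, with a smaller step to cows 4 and 5. SLC6A6, the taurine transporter, had 47.0, 0, 51.7, 94.6, 100 and 97.6%, so that cow 6 was at the top there. The receptor gene CCRL2, between LTF and CCR2, ranked 31 with r = 0.54 over 11 cows at 1 site. These genes were chosen for their likeness, which is therefore no result.

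Other genes known from neutrophils and monocytes showed no common direction. Of 35 further neutrophil genes 9 had a site, 4 higher and 5 lower in subfertile cows, with a median difference of -1.25 points. Of 31 further monocyte and macrophage genes 8 had a site, 5 higher and 3 lower, with a median of 9.53. Over all 8,569 genes with a symbol the median was 1.93 points, and 52.1% were higher. The largest differences in the neutrophil list were in the phosphatase gene ALPL (25.2 ± 32.0%, n = 6, against 61.6 ± 18.4%, n = 5), the oxidase subunit gene NCF1 (57.2 ± 30.4% against 88.4 ± 5.96%), the metalloproteinase gene MMP25 (60.2 ± 30.0%, n = 5, against 90.2 ± 16%, n = 6) and NCF4, another oxidase subunit gene (56.1 ± 31.3% against 27.3 ± 33.4%).

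In the monocyte list they were in CCRL2 (91.3 ± 10.6%, n = 6, against 54.8 ± 27.4%, n = 5), the receptor gene TREM2 (27.2 ± 30.3% against 0.278 ± 0.680%), the scavenger receptor gene MARCO (61.9 ± 36.5% against 88.2 ± 16.3%) and the haemoglobin scavenger gene CD163 (3.57 ± 8.75% against 25.9 ± 31.3%). No gene of either list separated the groups, against 3.52% of all genes with a symbol. Markers of other blood cells, as a view of cell types in the same samples, were measured by the same means. In the T cell list 3 of 7 genes with a site were higher (median -14.2 points), in the B cell list 5 of 7 (20.9), in the natural killer cell list 2 of 7 (-27.6) and in the eosinophil and basophil list 1 of 2 (-6.94). In the erythroid and platelet list the only gene with a site was lower (-30.8). The groups did not overlap in 1 of 7 T cell genes (THEMIS, lower in subfertile cows). The same held for 1 of 7 natural killer cell genes (NKG7, higher), and for no gene of the other lists. Every site was selected for an absolute difference above 25 points. The medians of all these lists, the neutrophil and monocyte lists included, thus depend mainly on which direction most genes have. They are not sizes of a difference in a cell type. The part of these markers in the values of the 8 genes was not tested.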

How the data were processed

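Whole blood DNA of 12 cows was sequenced after enzymatic conversion, per the labels' protocols. Tools named, without roles, in the submitters' processing notes are ChIPseeker 1.32.1, DRAGEN, Bismark and fastp 0.23.1, and the genome build is ARS-UCD1.2. Neither the statistical tool nor the read minimum is given in the sources used here. Per the file headers, the authors deposited for each cytosine the percent methylated in each cow, group means, a difference in percentage points, a p-value, a q-value and the distance to the nearest transcription start. Read counts were not analysed here, so depth is unknown and no interval or coverage minimum was set.

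Columns were assigned to cows by the number in their name. Gene values are unweighted means over sites with a value, computed per cow. The 2 groups are 6 cows each, from separate animals. Deviations from group means were correlated and tested by enumerating all pairings within groups (720 per group of 6 with all values), in Python 3.11.15 with numpy 2.4.6 and pandas 2.3.3, and 28 gene pairs were adjusted by Benjamini-Hochberg. The distance comparison used sites with a value in all 12 cows and, between chromosomes, every 200th of them. Both procedures were run on simulated normal values, without ties, separate levels of cows or a selection of sites. This is a check of the code only, since the LTF and CCR2 values have all of these.

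Named sites are, per gene, the site with the largest deposited difference, every site without overlap and the first and last, with other sites named after their values were seen. List genes are the 4 with the largest difference. Members and lists were chosen with earlier results of these data known. No sequence of the build was used here.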

Additional observations from a re-analysis of the deposited data

Results flagged for a closer look

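In 16 groups of cows (8 genes, subfertile and fertile), 3 held a cow far from the rest of its group by Dixon's criterion, and chance gives about 1 in 20. At the CCR2 site, subfertile cow 6 had 78.6% while the other 5 subfertile cows had 100%. At the CXCR2 site, subfertile cow 4 had 88.9% while the other 4 with a value had 100%. In both cases the other cows were tied, so any departure from 100% meets the criterion. Over the 12 MSR1 sites, subfertile cow 4 had 77.4% while the other 5 ran from 87.8 to 92.7%, and its gap was 0.678 of the group's range.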

How the results depend on the processing

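Of 169 recomputed values, 163 moved by less than the spread between cows or stayed on their side of the threshold. Leaving out 1 cow cannot move a difference by as much as that spread. For genes with 1 site, several settings repeat the same value, so this count is no measure of stability. Without wide-range sites, the LTF difference was 7.17 points over the 6 sites left, 3 of them the opposite sites of intron 14, and that of CLEC4E was 21.1. With distal intergenic sites added, the differences were 7.08 in MSR1, 0.756 in PADI4 and 7.11 in CLEC4E. With sites complete in all 12 cows, that of CLEC4E was -27.9, since 1 of its 2 opposite sites is left, and that of CD86 was -1.33, as it was without wide-range sites. Leaving out each cow in turn gave differences of 25.8 to 42.6 points in LTF, 35.1 to 55.1 in CCR2, 29.4 to 39.8 in MSR1, 18.9 to 30.1 in CXCR2, -41.3 to -27.8 in MPO, -32.7 to -23.9 in PADI4, -11.5 to -4.80 in CD86 and -6.20 to -0.754 in CLEC4E. The r of LTF and CCR2 ran from 0.94 to 0.98 over all 16 alternatives, 12 of them without 1 cow. The count of member sites without overlap was 2 or 3. CCR2 and CXCR2 have 1 site each, so leaving out wide-range sites could not be run for CCR2, nor sites complete in all cows for CXCR2. Depth is unknown, and its limit on single values was not worked out. No paired analysis was possible because the numbers of cows come from the order of the labels and pair no animals.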
